A study of Mus musculus with 10 samples.

Results

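A group of 9 protease inhibitor genes was followed across arrays of mouse basophils, mast cells and eosinophils, some of which lack 1 of the 9, *Slpi*. The genes were taken by symbol: the antileukoproteinase gene *Slpi*, the serpins *Serpinb1a*, *Serpinb2*, *Serpinb6a* and *Serpina3g*, the cystatins *Cst3*, *Cst7* and *Cstb*, and the Kunitz-type inhibitor *Spint1*. Of the 9 genes, 8 had a probe set annotated with 1 gene symbol, among 19937 genes named in this way, and each of the 8 had 1 such probe set. *Serpina3g* had none and was not analysed here. The RNA came from bone marrow (BM) cells of mice labelled C57BL6/N, wild type (B6) or *Slpi*-/-, that had been grown in cytokines, and each of the 10 conditions was measured on 1 Affymetrix Mouse Gene 1.0 ST array. BM-derived basophils (BMBs, grown in IL-3 and purified magnetically) were left unstimulated or were given anti-TNP-IgE for 1 h and the antigen TNP-ovalbumin for 12 h. Mast cells, kept in IL-3 for longer, were unstimulated, and BM-derived eosinophils (BMEos, grown in Flt3 ligand and stem cell factor and then in IL-5) were left unstimulated or were given lipopolysaccharide (LPS) at 1 µg/ml for 3 h. The sources used here do not state how many mice or cultures stand behind an array, or the age of the mice, and each B6 array has 1 *Slpi*-/- array of the same cell type and stimulus as its pair.

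Proteases of mast cells, basophils, eosinophils and neutrophils are stored in granules and lysosomes, and each class of protease meets its own inhibitors. Serpins are suicide substrates that trap a serine protease in a covalent complex, and those of clade B stay mostly inside the cell, where they guard it against leaked granule enzymes. Cystatins are reversible inhibitors that block the active site of papain-like cysteine proteases, the WAP-domain protein SLPI is secreted and blocks neutrophil elastase and cathepsin G, and Kunitz-type inhibitors such as SPINT1 sit on the cell surface and restrain membrane serine proteases.

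All signals below are log2 values from robust multi-array averaging (RMA), so a difference of 1 is a doubling, and no gene's level is set against that of another gene, since probe sets differ in brightness. A signal counted as above background when it was higher than 95% of the 1027 olfactory receptor genes on the same array, a limit that lay between 5.56 and 5.78. *Prg2*, the major basic protein gene of eosinophils, was at 12.02 to 12.35 on the BMEos arrays and at 5.58 or less elsewhere, *Mcpt8*, a basophil protease gene, ranged from 12.72 to 13.29 across BMB arrays, and *Cma1*, a mast cell chymase gene, was at 11.99 and 12.19 on the mast cell arrays. *Xist*, which is transcribed from the inactive X chromosome of females, was at 9.72 and 9.66 on the LPS arrays and at 4.90 or less on the others, and the Y-linked *Eif2s3y* was at 3.22 and 3.54 on the LPS arrays and at 7.62 to 8.48 on the others. In every LPS comparison below, LPS and the sex of the donor cells therefore cannot be told apart.

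*Slpi* (gene ID 20568, chromosome 2) stood above the *Slpi*-/- arrays in B6 BMBs and B6 BMEos but not in B6 mast cells. In B6 cells its signal was 6.53 in mast cells, 11.42 in resting BMBs, 11.33 in IgE-treated BMBs, 8.08 in resting BMEos and 7.96 in LPS-treated BMEos. On the *Slpi*-/- arrays, in the same order, it was 6.47, 6.55, 6.35, 6.41 and 5.93. The B6 mast cell array thus lay within the range of the arrays that lack the gene, and the other 4 B6 arrays lay above it. *Slpi* counted as above background on all 10 arrays, those that lack the gene included. Passing that limit therefore does not by itself show that an intact gene is transcribed. Where the probe set lies relative to the deleted part of the gene is not given in the sources used here.

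The genotype difference in *Slpi* was larger in BMBs than in BMEos. *Slpi* is the deleted gene, so the size of this difference follows its level in B6 cells. *Slpi* was lower in *Slpi*-/- BMBs by 4.93 (log2 difference -4.93, SE 0.12, 2 pairs of arrays, limma adjusted p = 5.17e-05), which is 30.5-fold, and it was the single gene called in that comparison (0.00737% of 13571 genes tested). In BMEos the log2 difference was -1.85 (SE 0.12, 3.61-fold, 2 pairs, adjusted p = 0.0277, again 1 gene or 0.00737%), and that call was lost in 5 of the 9 alternatives tried, with the value at -1.67 without the LPS pair (adjusted p = 0.193) and at -2.03 without the unstimulated pair (adjusted p = 0.0741). The test of the difference between both cell types gave 3.08 (SE 0.17, adjusted p = 0.00989, 0.00737% of genes called), with adjusted p = 0.0719 after quantile normalization. In mast cells the pair differed by -0.06. Over all 5 pairs *Slpi* was lower in 5 of 5, by -4.99 to -0.06, and the mean of -2.72 (SE 0.66) did not pass (limma adjusted p = 0.851).

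Among markers of neutrophils, a cell type that also transcribes *Slpi*, 9 of 11 were above background on the unstimulated B6 BMB array and 5 to 6 on the other 3 BMB arrays, and their mean signal was 7.64 on the former and 6.27 to 6.67 on the latter. The myeloperoxidase gene *Mpo* was at 8.84 on that array and at 6.0 or less on the other BMB arrays. The neutrophil elastase gene *Elane* was at 7.14 on that array and at 5.16 to 5.47 on the others. The list was split, and *Ly6g* at 10.95 to 12.68 and *Cxcr2* at 11.25 to 11.42 were high on all 4 BMB arrays. *Ltf* was at 4.88 to 5.08, below background on all 4, and *Camp* was near background at 5.47 to 5.72. *S100a8* and *Ngp* were at 5.79 and 6.77 on the unstimulated B6 array. They were below background on the other BMB arrays, at 4.04 or less and 5.09 or less. In BMEos 8 to 10 of the 11 markers were above background in both genotypes. The part of such cells in the *Slpi* signals of BMBs and BMEos was not tested. In such bulk RNA, fewer cells of a type and less RNA per cell cannot be told apart.

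**Figure D1:**
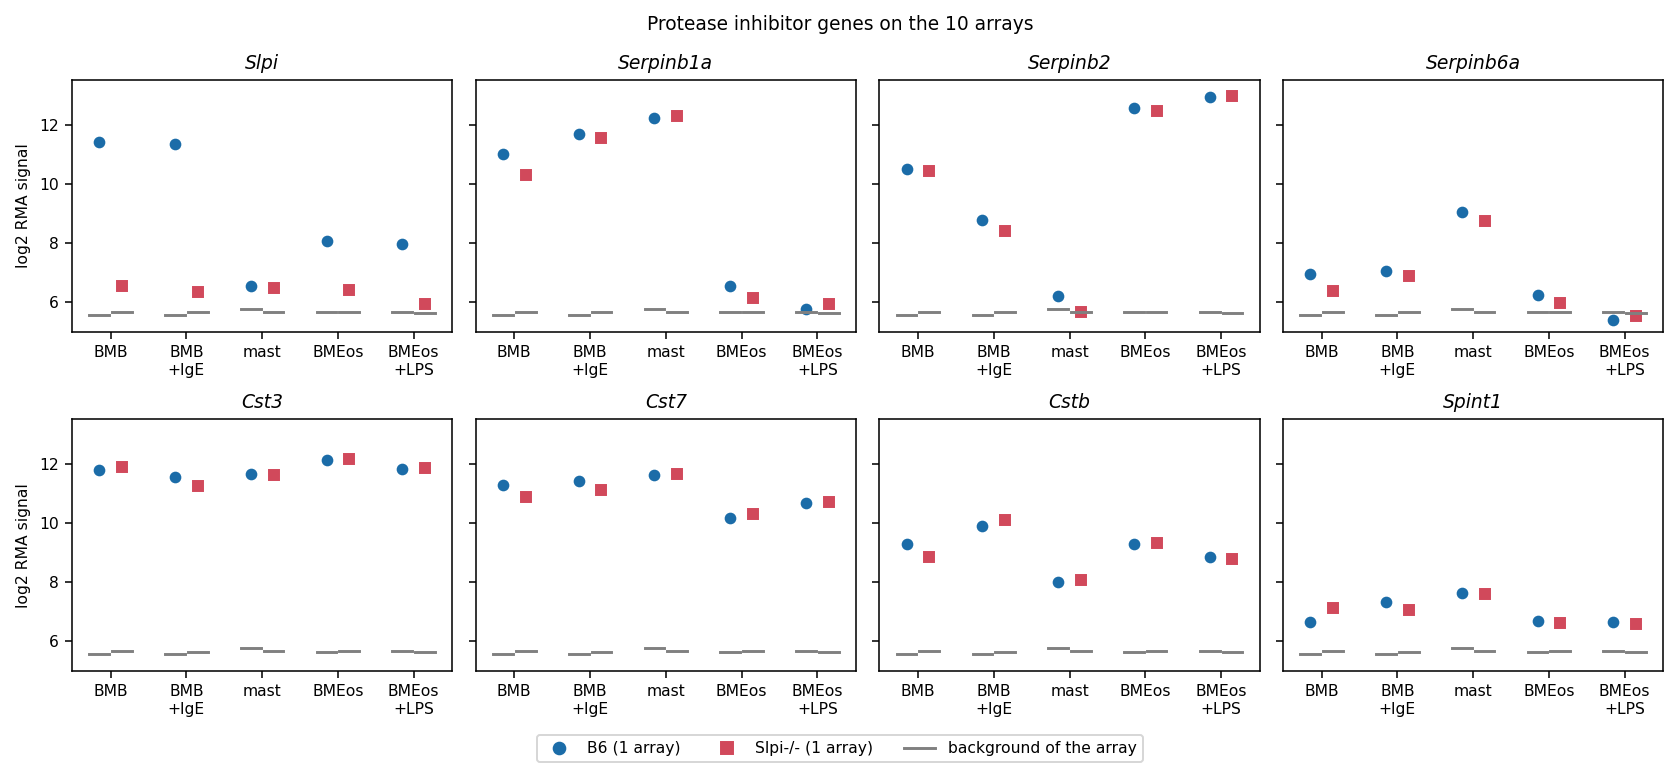
Log2 RMA signal (y axis) of the 8 measured inhibitor genes on each of the 10 arrays (x axis, cell type and stimulus), B6 as blue circles and *Slpi*-/- as red squares, with a grey line at the background of the array. *Slpi* stands above the *Slpi*-/- arrays in B6 BMBs and B6 BMEos, *Serpinb1a* and *Serpinb6a* are highest in mast cells, and *Serpinb2* runs from 5.67 in mast cells to 12.96 in BMEos with LPS.

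The 3 measured clade B serpins differed between all 3 cell types, with *Serpinb1a* and *Serpinb6a* highest in mast cells and *Serpinb2* highest in BMEos. *Serpinb1a* (gene ID 66222, chromosome 13) encodes an inhibitor of elastase, cathepsin G and chymase-like enzymes. Its B6 and *Slpi*-/- signals were 12.22 and 12.30 in mast cells, 11.00 and 10.29 in resting BMBs, 11.68 and 11.54 in IgE-treated BMBs, 6.56 and 6.14 in resting BMEos, and 5.78 and 5.94 in LPS-treated BMEos. The 4 BMEos signals lay between 5.78 and 6.56, less than 1 above background, and every mast cell and BMB signal was above 10. Among unstimulated cells *Serpinb1a* was lower in BMBs than in mast cells by 1.62 (log2 difference -1.62, SE 0.18, 3.07-fold, limma adjusted p = 0.000544) and lower in BMEos than in mast cells by 5.91 (-5.91, SE 0.18, 60.2-fold, adjusted p = 8.37e-07).

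*Serpinb2* (gene ID 18788, chromosome 1) encodes plasminogen activator inhibitor type 2, which blocks urokinase. It ran the other way. Its B6 and *Slpi*-/- signals were 12.56 and 12.45 in resting BMEos, 12.92 and 12.96 in LPS-treated BMEos, 10.52 and 10.44 in resting BMBs, 8.76 and 8.41 in IgE-treated BMBs, and 6.21 and 5.67 in mast cells. The order of BMEos, BMBs and mast cells held with no overlap of arrays, over a range of 7.29. *Serpinb2* was higher in BMBs than in mast cells by 4.53 (SE 0.13, 23.2-fold, adjusted p = 1.51e-06), and in BMEos than in BMBs by 2.03 (SE 0.13, 4.08-fold, adjusted p = 4.88e-05).

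*Serpinb6a* (gene ID 20719, chromosome 13), whose product inhibits trypsin-like proteases and cathepsin G, had its highest signals in mast cells. Its signals were 9.04 in B6 and 8.73 in *Slpi*-/- mast cells, 6.95 and 6.39 in resting BMBs, 7.07 and 6.88 in IgE-treated BMBs, 6.23 and 5.98 in resting BMEos, and 5.40 and 5.55 in LPS-treated BMEos. Both mast cell arrays lay above the other 8, and the LPS arrays lay below their backgrounds of 5.67 and 5.62. Relative to mast cells it was lower in BMBs by 2.22 (-2.22, SE 0.11, adjusted p = 1.36e-05) and in BMEos by 2.78 (-2.78, SE 0.11, adjusted p = 2.61e-06). The step from BMBs to BMEos was -0.56 (SE 0.11, adjusted p = 0.00697, and 0.0508 without the genotype term).

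Relatives of these genes by name have probe sets of their own. *Serpinb1b* and *Serpinb1c* reached at most 4.97 and 3.77, *Serpinb6c*, *Serpinb6d* and *Serpinb6e* stayed at 4.56, 3.59 and 3.57 or less, and all of these were below background on every array. *Serpinb6b* was above background on 2 arrays, with a highest signal of 6.38 in unstimulated *Slpi*-/- BMBs. Whether probes of a set also bind transcripts of a relative was not tested.

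The promoter sequences of 4 members are printed because 3 of them stand for the 3 cell-type patterns, *Slpi* for B6 BMBs and BMEos, *Serpinb2* for BMEos and *Serpinb6a* for mast cells, and *Cst7* for a response to LPS described below. Each covers 300 bases around a RefSeq start site on assembly GRCm38.p6, most of them upstream, written 5′ to 3′ on the strand of the gene, and capitals mark the letters of a motif on either strand (the letters AGATAA for GATA factors, TTGCNNAA for C/EBP, TGANTCA for AP-1, and the consensus of NF-kB). Of the 8 measured genes, 6 had an entry in the promoter table (*Serpinb2* and *Serpinb6a* with a pair of start sites each), and *Serpinb1a* and *Cstb* had none.
Slpi, chr2:164356458-164356757, minus strand: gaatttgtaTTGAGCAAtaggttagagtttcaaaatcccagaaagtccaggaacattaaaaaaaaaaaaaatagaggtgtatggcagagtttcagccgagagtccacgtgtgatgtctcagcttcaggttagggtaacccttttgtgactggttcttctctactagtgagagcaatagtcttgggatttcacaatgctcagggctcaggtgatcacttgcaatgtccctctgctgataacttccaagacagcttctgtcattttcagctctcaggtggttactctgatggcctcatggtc
Serpinb2, chr1:107511173-107511472, plus strand: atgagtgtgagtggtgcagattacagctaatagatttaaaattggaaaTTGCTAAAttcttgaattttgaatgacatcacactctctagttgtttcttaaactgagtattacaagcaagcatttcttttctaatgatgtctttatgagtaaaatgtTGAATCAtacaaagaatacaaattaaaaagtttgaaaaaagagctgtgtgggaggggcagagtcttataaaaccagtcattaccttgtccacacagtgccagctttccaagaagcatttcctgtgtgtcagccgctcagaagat
Serpinb6a, chr13:34002745-34003044, minus strand: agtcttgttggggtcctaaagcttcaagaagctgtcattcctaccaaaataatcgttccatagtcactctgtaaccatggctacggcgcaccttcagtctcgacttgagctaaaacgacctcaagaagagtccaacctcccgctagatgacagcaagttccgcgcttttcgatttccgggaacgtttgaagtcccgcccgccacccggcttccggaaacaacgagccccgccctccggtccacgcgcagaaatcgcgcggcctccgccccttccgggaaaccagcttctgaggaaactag
Cst7, chr2:150570165-150570464, plus strand: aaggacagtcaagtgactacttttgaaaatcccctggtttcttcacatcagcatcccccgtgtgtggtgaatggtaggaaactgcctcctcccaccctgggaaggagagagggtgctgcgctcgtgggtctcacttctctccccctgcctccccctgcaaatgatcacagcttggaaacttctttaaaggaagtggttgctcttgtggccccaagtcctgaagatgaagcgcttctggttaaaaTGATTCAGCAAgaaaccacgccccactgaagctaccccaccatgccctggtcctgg
The *Slpi* window held a C/EBP motif that begins at position -241 from the start site, and the *Serpinb2* window held a C/EBP motif at -202 and an AP-1 motif at -94. The window of the second *Serpinb2* start site, which overlaps the first, held the same AP-1 letters, a GATA motif and another C/EBP motif. *Cst7* had a C/EBP motif at -3 that overlaps an AP-1 motif at -6, *Spint1* had an AP-1 motif at -6, and the windows of *Cst3* and of both *Serpinb6a* start sites held none of these motifs. Among all 32851 promoters of the table, 10.8% held the C/EBP letters, 7.81% the AP-1 letters, 11.2% the GATA letters and 8.46% the NF-kB consensus, and most promoters lack any given one.

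Between unstimulated cell types the log2 differences of the 3 cystatins ran from -1.42 to 1.26, and those of the 3 serpins from -5.91 to 6.56. *Cst3* (gene ID 13010, chromosome 2) encodes cystatin C, the main secreted inhibitor of cysteine cathepsins. Its B6 and *Slpi*-/- signals were 11.79 and 11.90 in resting BMBs, 11.56 and 11.26 in IgE-treated BMBs, 11.67 and 11.61 in mast cells, 12.11 and 12.16 in resting BMEos, and 11.83 and 11.84 in LPS-treated BMEos. All 10 arrays lay within 0.90. BMEos were above mast cells by 0.50 (SE 0.10, limma adjusted p = 0.00487), while BMBs and mast cells differed by 0.21 (SE 0.10, 95% interval -0.03 to 0.44, adjusted p = 0.151).

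*Cst7* (gene ID 13011, chromosome 2) encodes cystatin F, an inhibitor of blood cells that reaches lysosomes and restrains cathepsin C, the enzyme that activates granule serine proteases. The signals of *Cst7* were 11.62 and 11.67 in B6 and *Slpi*-/- mast cells, 11.29 and 10.86 in resting BMBs, 11.41 and 11.12 in IgE-treated BMBs, 10.16 and 10.29 in resting BMEos, and 10.69 and 10.71 in LPS-treated BMEos. Mast cells were highest and unstimulated BMEos lowest. The log2 differences were -0.57 for BMBs (SE 0.15, adjusted p = 0.0234) and -1.42 for BMEos (SE 0.15, adjusted p = 0.000227) against mast cells, and -0.85 for BMEos against BMBs (SE 0.15, adjusted p = 0.00383).

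*Cstb* (gene ID 13014, chromosome 10) encodes stefin B, a cytosolic cathepsin inhibitor. Its signals were 8.01 and 8.08 in B6 and *Slpi*-/- mast cells, 9.30 and 8.86 in resting BMBs, 9.88 and 10.10 in IgE-treated BMBs, 9.28 and 9.34 in resting BMEos, and 8.84 and 8.77 in LPS-treated BMEos. Both mast cell arrays were below the other 8. *Cstb* was higher than in mast cells by 1.03 in BMBs (SE 0.15, adjusted p = 0.00163) and by 1.26 in BMEos (SE 0.15, adjusted p = 0.000379), and BMEos and BMBs differed by 0.23 (95% interval -0.12 to 0.58, adjusted p = 0.26).

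*Spint1* (gene ID 20732, chromosome 2) encodes the membrane inhibitor of matriptase and hepsin. Its signals were 7.64 and 7.59 in B6 and *Slpi*-/- mast cells, 6.66 and 7.11 in resting BMBs, 7.34 and 7.04 in IgE-treated BMBs, 6.68 and 6.60 in resting BMEos, and 6.64 and 6.58 in LPS-treated BMEos. Mast cells were again highest, by 0.73 over BMBs (log2 difference -0.73, SE 0.15, adjusted p = 0.00863) and by 0.97 over BMEos (-0.97, SE 0.15, adjusted p = 0.00151).

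Counted together, 6 of the 8 measured genes passed between BMBs and mast cells (2 higher and 4 lower in BMBs, against 36.7% of 12998 genes tested), 7 passed between BMEos and mast cells (3 higher and 4 lower in BMEos, against 51.1%) and 4 between BMEos and BMBs (1 higher and 3 lower in BMEos, against 39.7%). *Slpi* passed in none of them, with BMBs at 2.48 over mast cells (SE 0.95, adjusted p = 0.0846), in groups that pool B6 and *Slpi*-/- arrays. The median differences of the 8 were -0.18, -0.24 and -0.40, and those of all genes tested were -0.01, -0.04 and -0.03.

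**Figure D2:**
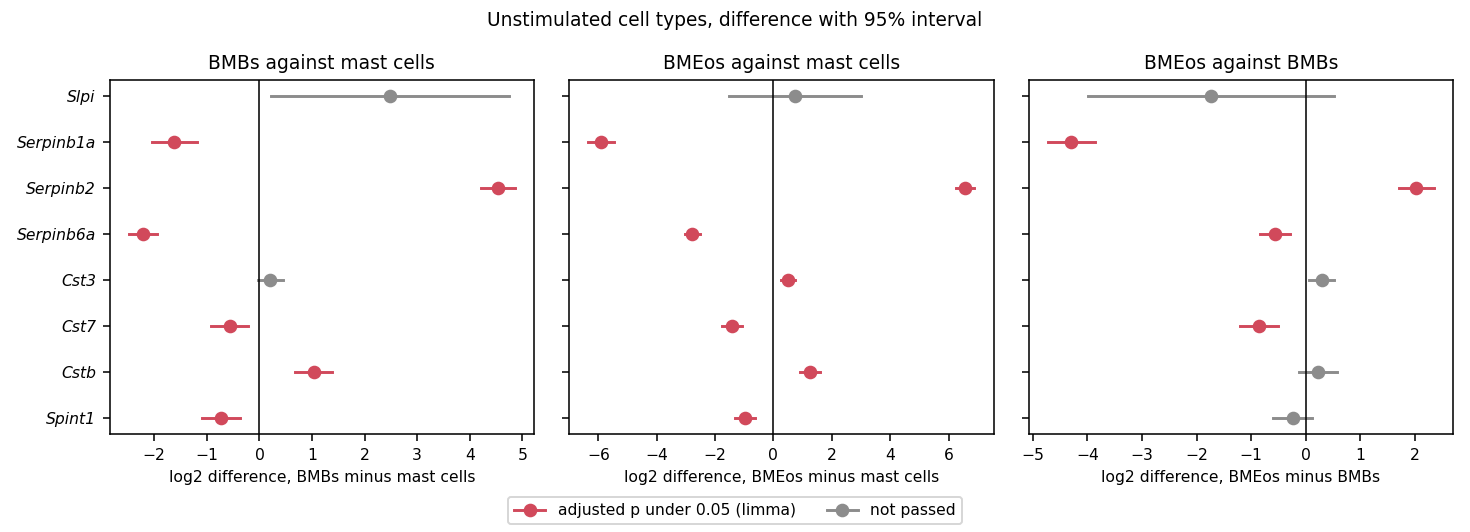
Log2 difference between unstimulated cell types (x axis) for the 8 measured inhibitor genes (y axis), points as limma estimates and lines as 95% intervals from 6 arrays, red where the adjusted p was under 0.05 and grey where it was not. *Serpinb2* is on the higher side and *Serpinb1a* and *Serpinb6a* are on the lower side in BMBs and BMEos against mast cells, and the *Slpi* groups pool both genotypes.

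The comparison of *Slpi*-/- with B6 cells asked whether other inhibitor genes shift where *Slpi* is lost. None of the 7 other measured genes passed, over all pairs (0 of 13571 genes passed, 0%, with 722 at an unadjusted p under 0.05, and 0 genes after adjustment by the methods' t-test), in BMBs or in BMEos. None of the 7 reached a 2-fold difference in any pair, where 0.783% of genes did in unstimulated BMBs, 0.691% in BMBs with IgE, 0.118% in mast cells, 0.103% in BMEos and 0.152% in BMEos with LPS.

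For the 3 serpins, the mean genotype differences over the 5 pairs lay between -0.23 and -0.21, and those between cell types were at least as large as the -0.56 of *Serpinb6a*. *Serpinb6a* was lower in *Slpi*-/- cells in 4 of 5 pairs, by -0.23 on average (SE 0.09, 95% interval -0.44 to -0.02, limma adjusted p = 0.914). *Serpinb2* was also lower in 4 of 5 pairs, by -0.21 (SE 0.09, interval -0.41 to -0.01, adjusted p = 0.914). *Serpinb1a* was lower in 3 of 5 pairs, by -0.21 (SE 0.12, interval -0.49 to 0.07, adjusted p = 0.914). The other 4 genes had mean differences of -0.10 (*Cst7*), -0.04 (*Cst3*), -0.04 (*Cstb*) and -0.01 (*Spint1*), and their 95% intervals reached no lower than -0.31 (*Cst7*) and no higher than 0.22 (*Spint1*). Of all genes tested, 20.5% were lower in at least 4 of the 5 pairs and 52.6% in at least 3. *Cst3*, *Cst7* and *Spint1* share chromosome 2 with the deleted gene, with 220, 213 and 495 measured genes between them and *Slpi*.

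By their medians, the BMB pairs held the larger genotype differences of these 7 genes. In unstimulated BMBs 5 of the 7 were lower in *Slpi*-/- cells, as were 54.8% of all genes tested. The 7 had a median of -0.42 (all genes tested -0.02) and ranged from -0.72 for *Serpinb1a* to 0.46 for *Spint1*. In BMBs with IgE 6 of the 7 were lower, as were 52.2% of all genes tested, with a median of -0.29 (all genes -0.01). The medians were -0.06 in mast cells, -0.08 in BMEos and 0.02 in BMEos with LPS. The values nearest to a call in BMBs were those of *Cst7* (-0.36, SE 0.10, 95% interval -0.59 to -0.12, adjusted p = 0.508), *Serpinb6a* (-0.37, SE 0.14, adjusted p = 0.702) and *Serpinb1a* (-0.43, SE 0.18, adjusted p = 0.757). For *Cst7* the test of the difference between BMEos and BMBs gave 0.43 (SE 0.14, adjusted p = 0.785).

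Markers of other cells also differed between the paired BMB arrays, none of them past the genotype test (lowest adjusted p of 0.628 for 11 neutrophil markers, 0.0602 for macrophage and dendritic cell markers and 0.607 for 5 megakaryocyte and platelet markers). Before IgE, 9 of the 11 neutrophil markers were lower in *Slpi*-/- BMBs, and with IgE 5 of the 11. Of all genes tested, 54.8% and 52.2% were lower in the same pairs. Among the 11, *Ltf* was below background on every BMB array. Of these lists the platelet list had the largest difference in means, on the IgE arrays, where its mean was 8.52 in B6 and 9.91 in *Slpi*-/- BMBs and all 5 genes were higher in *Slpi*-/- cells, from 0.04 for *Itga2b* to 2.64 for *Ppbp*, the platelet basic protein gene. Before IgE its means were 9.66 and 9.62. Of the 13 macrophage and dendritic cell markers, 6 were higher and 7 lower in *Slpi*-/- BMBs before IgE (-0.63 for *Mrc1* to 1.0 for *Itgax*), and 9 were higher and 4 lower with IgE (-0.25 for *Adgre1* to 1.47 for *H2-Aa*). Their means were 7.39 and 7.47 in B6 and *Slpi*-/- BMBs before IgE and 7.0 and 7.46 after it. The part of these markers in the differences of the inhibitor genes was not tested.

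**Figure D3:**
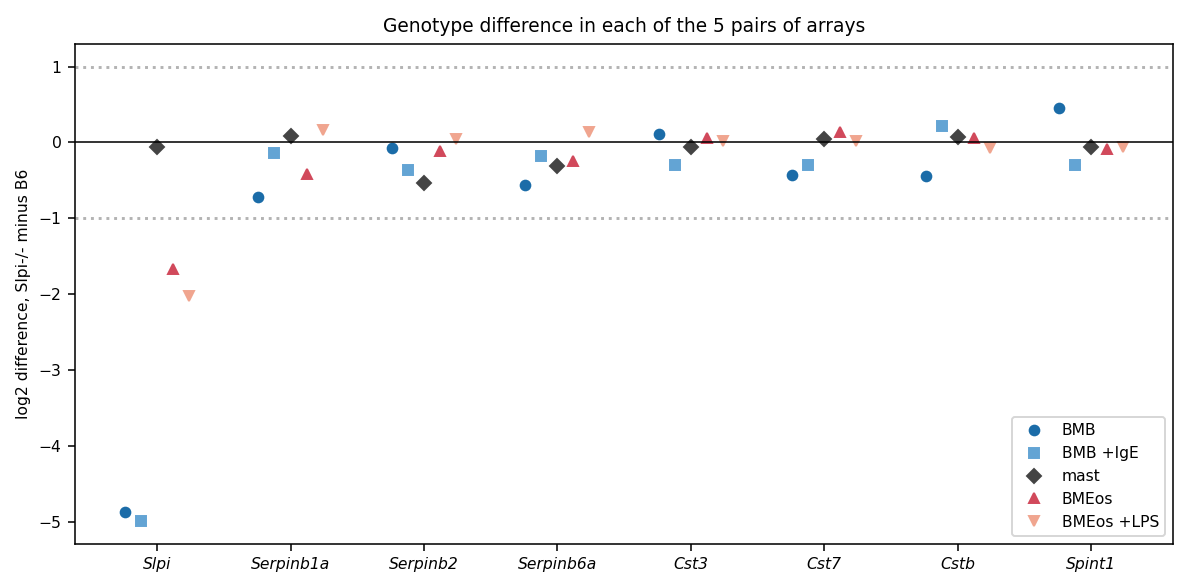
Log2 difference of *Slpi*-/- minus B6 (y axis) in each of the 5 pairs of arrays for the 8 measured inhibitor genes (x axis), 1 symbol per pair, with dotted lines at a 2-fold difference. *Slpi* lies far below the lower line in both BMB pairs and below it in both BMEos pairs, and each of the other 7 genes stays between the lines in all 5 pairs.

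IgE with antigen moved 4 of the 8 measured genes in BMBs, 2 up and 2 down, where 22.8% of all genes passed. *Serpinb2* fell from 10.52 to 8.76 in B6 BMBs and from 10.44 to 8.41 in *Slpi*-/- BMBs (log2 difference -1.89, SE 0.11, 3.71-fold, limma adjusted p = 0.000635). *Serpinb1a* rose by 0.67 in B6 and by 1.25 in *Slpi*-/- BMBs (0.96, SE 0.18, adjusted p = 0.0138), and *Cstb* rose by 0.58 and 1.24 (0.91, SE 0.16, adjusted p = 0.0101). *Cst3* fell by 0.24 and 0.64 (-0.44, SE 0.12, adjusted p = 0.0449). Each of the 4 moved the same way in both genotypes, which a call on both pairs together makes likely. The median over all 8 was 0.25 (all genes tested -0.02).

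The rises of *Serpinb1a* and *Cstb* and the fall of *Cst3* were smaller in the B6 pair than in the *Slpi*-/- pair. Without the latter the rise was 0.67 for *Serpinb1a* (adjusted p = 0.14) and 0.58 for *Cstb* (adjusted p = 0.063), *Cst3* was at -0.24 (adjusted p = 0.331), and all genes called numbered 1115 in place of 3091. A difference in response between genotypes was not tested. *Slpi* itself was at 11.42 before and 11.33 after IgE in B6 BMBs. *Cst7* (0.19, adjusted p = 0.227), *Serpinb6a* (0.30, adjusted p = 0.179) and *Spint1* (0.31, adjusted p = 0.269) did not pass, and *Spint1* was higher by 0.69 in B6 and lower in *Slpi*-/- BMBs (-0.07). Markers of other cells were compared in the same way. Of the 11 neutrophil markers 10 were lower with IgE in B6 BMBs (mean 7.64 to 6.27) and 8 in *Slpi*-/- BMBs (6.67 to 6.46), and *Ly6g* alone passed (adjusted p = 0.000822). The 5 platelet markers were all lower with IgE in B6 BMBs, while 3 were higher and 2 lower in *Slpi*-/- BMBs, and none passed (lowest adjusted p = 0.141). Of the macrophage and dendritic cell markers, 2 rose (*Adgre1* and *Itgax*) and 3 fell (*Mrc1*, *Cd74* and *H2-Aa*). Their part in these changes was not tested.

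After LPS, 3 of the 8 genes passed in BMEos, against 28.9% of all genes (1724 higher and 2202 lower, or 1203 and 2756 with each array centred on its median). *Cst7* rose by 0.54 in B6 and 0.42 in *Slpi*-/- BMEos (0.48, SE 0.10, 1.39-fold, limma adjusted p = 0.0136). *Serpinb2*, already at 12.56 and 12.45, rose by 0.35 and 0.51 (0.43, SE 0.11, adjusted p = 0.0296), and the call was lost in 5 of 9 alternatives (adjusted p up to 0.229). *Serpinb6a* fell from 6.23 and 5.98 to signals below background, which bounds its fall at 1.38-fold or more (-0.63, SE 0.14, adjusted p = 0.0183). These 3 genes changed in the same direction in both genotypes, which a call on both pairs together makes likely. With 1 pair left out, *Cst7* and *Serpinb2* (without either pair) and *Serpinb6a* (without the B6 pair) no longer passed. The count over all genes was 1525 without the B6 pair and 1534 without the *Slpi*-/- pair.

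The other 5 genes were lower with LPS and did not pass: *Cstb* by -0.50 (adjusted p = 0.0585), *Serpinb1a* by -0.49 (adjusted p = 0.0915), *Cst3* by -0.30 (adjusted p = 0.108), *Slpi* by -0.30 (adjusted p = 0.0982) and *Spint1* by -0.03 (adjusted p = 0.908). In B6 BMEos alone *Slpi* went from 8.08 to 7.96. The median over the 8 was -0.30 (all genes tested 0.02). Of the 13 macrophage and dendritic cell markers 7 rose with LPS, most of all *Cd74*, an antigen presentation gene, and 1, the integrin gene *Itgax*, fell (9.51 to 8.47 in B6 and 9.80 to 8.73 in *Slpi*-/- BMEos). The 13 had means of 7.03 and 7.17 without and 7.47 and 7.51 with LPS. Among the 11 neutrophil markers *Lcn2* rose and *Cxcr2* and *Ly6g* fell, and of the 5 platelet markers *Pf4* rose. Their part in the LPS results was not tested.

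**Figure D4:**
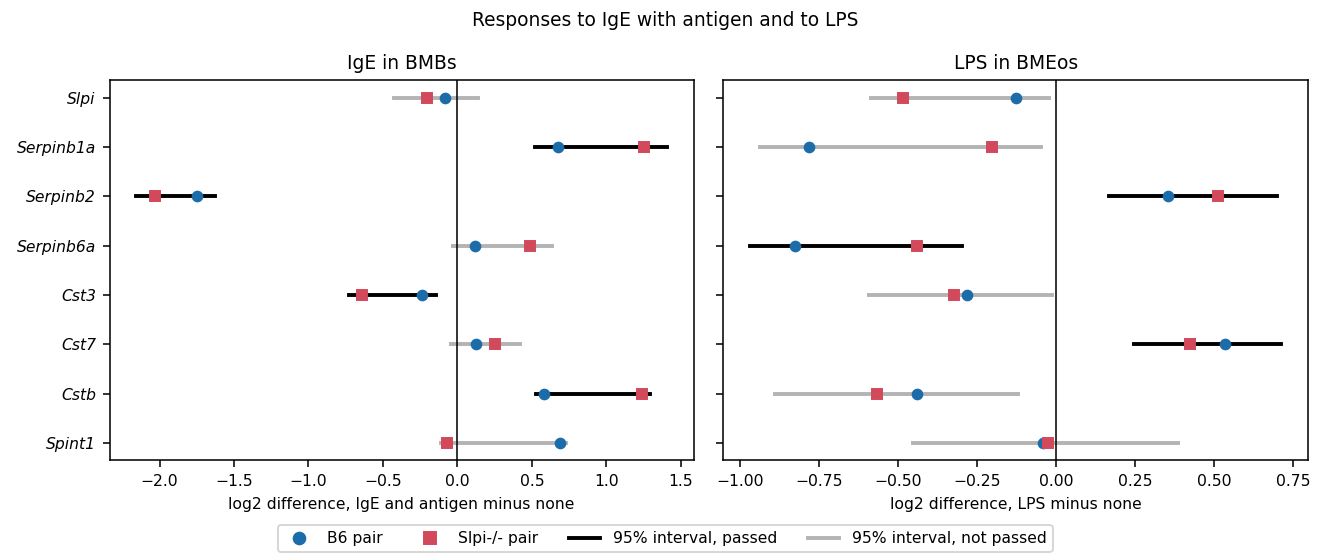
Log2 difference after IgE and antigen in BMBs (left) and after LPS in BMEos (right) on the x axes for the 8 measured inhibitor genes (y axis), blue circles for the B6 pair and red squares for the *Slpi*-/- pair, with the 95% interval of the limma estimate in black where it passed and grey where it did not. *Serpinb2* falls by 1.75 and 2.03 with IgE and is higher by 0.35 and 0.51 with LPS.

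Other inhibitor families were counted beside these genes: 113 further serpin, cystatin, Kunitz, Kazal and WAP four-disulfide core genes, of which 92 were measured and 28 were above background on at least 1 array. With genotype none of the 28 passed in any of the 4 genotype tests. Over all pairs, in BMBs, in BMEos and between them, 3, 2, 1 and 2 had an unadjusted limma p under 0.05. Of all genes, 5.32%, 6.76%, 5.78% and 6.09% did. The 2-fold check of single pairs covered the members alone. *Serpinb10* was at 4.50 (below background) in B6 and 6.65 in *Slpi*-/- BMBs with IgE, and at 6.46 and 6.03 without. *Serpinb6b* was at 5.35 (below background) and 6.38 without IgE, and at 5.97 and 5.65 with it. Signals of *Serpina3b* and *Wfdc17* are given below. With IgE 1 of the 28 passed (3.57%, against 22.8% of all genes), the clade A serpin *Serpina3b*, which rose by 1.14 (SE 0.22, limma adjusted p = 0.0134). Its signals were 5.74 and 6.25 in B6 and *Slpi*-/- BMBs and 6.58 and 7.69 with IgE, and 4.58 or less in mast cells and BMEos, below background. *Wfdc1*, at 5.37 and 5.18 before LPS and at 6.08 and 5.96 after it, rose with LPS (adjusted p = 0.00237, at least 1.28-fold, since it began below background), and *Spink2* passed as lower while below background on all 4 BMEos arrays (adjusted p = 0.0348). These 2 were 7.14% of the 28, against 28.9% of all genes.

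Between cell types, 26 of these genes were tested. In BMBs 6 were higher and 1 lower than in mast cells, in BMEos 5 were higher and 5 lower than in mast cells, and 2 were higher and 7 lower in BMEos than in BMBs, which are 26.9%, 38.5% and 34.6% of the 26 against 36.7%, 51.1% and 39.7% of all genes. The WAP-domain gene *Wfdc17*, a relative of *Slpi*, was at 9.29 and 9.89 in B6 and *Slpi*-/- BMBs, 8.64 and 10.36 in BMBs with IgE, 6.40 to 6.92 in BMEos and 5.15 and 5.08 in mast cells. Its signals in mast cells were below background, so BMBs were at least 14.5-fold higher (adjusted p = 3.9e-06). *Wfdc17* was higher in *Slpi*-/- BMBs in both pairs and did not pass. *Serpinb10* was at 6.46 and 6.03 in BMBs and 3.45 and 3.70 in mast cells, below background there (at least 1.43-fold, adjusted p = 2.95e-05). *Spint2*, the second membrane Kunitz inhibitor gene, was at 7.80 and 7.76 in BMBs, 6.86 and 6.85 in BMEos, and 6.02 and 5.28 in mast cells (BMBs against mast cells, adjusted p = 0.000155). *Serpinb9*, whose product inhibits granzyme B, was at 6.01 and 6.35 in mast cells and at 3.93 to 5.08 on the BMEos arrays, below background there (mast cells at least 1.43-fold above BMEos, adjusted p = 0.000165). *Reck* and *Serpina11* were the 2 genes higher in BMEos than in BMBs, by 0.46 and 0.37 (adjusted p = 0.0138 and 0.0231). *Reck* was near background, at 5.97 and 6.07 in BMEos and at 5.635 and 5.477 in BMBs, where the *Slpi*-/- array lay below background.

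The protease genes that such inhibitors meet were described in the same way: 26 serine protease genes and 14 genes of cathepsins and legumain, 37 of them measured and 29 tested. (*Ctsa* is a serine carboxypeptidase, and *Ctsd* and *Ctse* encode aspartic proteases.) None of the 29 passed with genotype. In the 4 tests above 3, 12, 3 and 7 had an unadjusted limma p under 0.05, as did 5.32%, 6.76%, 5.78% and 6.09% of all genes. In BMBs the 12 of 29 are a larger share than that of all genes. That share is a description only, since the genes share the same arrays and the list was chosen with earlier results known. The list also holds *Elane*, a neutrophil marker that was highest among BMB arrays on the unstimulated B6 array. Over the 29 the median difference in BMBs was -0.05 (all genes tested -0.02), and single genes lay on both sides. *Plau*, the urokinase gene, was at 8.27 in B6 and 7.25 in *Slpi*-/- BMBs, and at 8.86 and 7.02 with IgE. *Ctss* was at 7.77 and 8.21, and at 7.36 and 8.04 with IgE. Between cell types, 14 were higher and 9 lower in BMBs than in mast cells, 7 higher and 12 lower in BMEos than in mast cells, and 1 higher and 19 lower in BMEos than in BMBs. These were 79.3%, 65.5% and 69.0% of the 29, against 36.7%, 51.1% and 39.7% of all genes tested. Among the protease genes farthest apart were those that mark the cells, *Cma1* and *Mcpt8*, with *Prss34*, a basophil protease gene at 12.99 and 12.78 in BMBs and 6.58 and 6.17 in mast cells. *Mcpt2* passed as lower in BMBs, but it was above background on the B6 mast cell array alone (5.94), so its difference is bounded at 1.13-fold or more. The single gene higher in BMEos than in BMBs was *Ctsh*, which encodes cathepsin H, at 11.20 and 11.19 in BMEos, 5.76 and 6.94 in BMBs and 4.26 and 4.39 in mast cells. *St14*, the gene of matriptase, a target of SPINT1, was at 9.83 and 9.65 in BMBs, 9.04 and 8.78 in BMEos and 5.85 and 5.74 in mast cells, where *Spint1* was highest. *Gzmb*, the granzyme B gene, was at 12.32 and 12.33 in mast cells, 8.86 and 8.70 in BMBs and below background in BMEos, so mast cells were at least 101-fold above BMEos (adjusted p = 1.09e-07). *Gzmb* and *Serpinb9* were both above background on the 6 mast cell and BMB arrays and on none of the 4 BMEos arrays. In unstimulated B6 BMBs *Serpinb9* was barely so, at 5.59 against a background of 5.57. *Tpsb2*, a tryptase gene, was at 12.32 and 12.63 in mast cells, 11.02 and 10.81 in BMBs and 5.49 and 5.73 in BMEos, which resembles the order of *Serpinb1a*.

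IgE raised 4 and lowered 6 of the 29 protease genes in BMBs, 34.5% against 22.8% of all genes. *Gzmb* rose from 8.86 to 10.30 in B6 and from 8.70 to 10.84 in *Slpi*-/- BMBs (1.79, SE 0.17, limma adjusted p = 0.00169), and the tryptase gene *Tpsg1* rose from 9.46 to 10.54 and from 8.67 to 9.89 (1.15, SE 0.10, adjusted p = 0.00136). *Ctsl*, the cathepsin L gene, fell from 8.95 to 8.02 and from 9.22 to 8.05 (-1.05, SE 0.13, adjusted p = 0.00364). *Ctse* and *Hpn* fell by 0.52 and 0.50 (-0.52 and -0.50, adjusted p = 0.0224 and 0.021). With LPS, which cannot be told apart from donor sex here, 5 of the 29 were higher and 5 lower in BMEos. These were 34.5% of the 29, against 28.9% of all genes. *Ctss*, the cathepsin S gene, was at 5.93 and 5.88 without and 7.20 and 7.19 with LPS (1.29, SE 0.10, adjusted p = 0.000444), *Hpn*, the hepsin gene, rose by 1.59 (adjusted p = 0.000259), and *Lgmn*, the legumain gene, fell by 0.88 (log2 difference -0.88, adjusted p = 0.00325). *Ctsz* rose by 1.08 (adjusted p = 0.00206), and *Ctse* and *Ctsa* fell by 0.74 and 0.63 (-0.74 and -0.63, adjusted p = 0.00519 and 0.00564).

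The patterns of the members over the 10 arrays can be compared by Pearson's r, given as a description, since the arrays share cell types. *Serpinb2* ran opposite to *Serpinb1a* (r = -0.92), *Serpinb6a* (-0.95) and *Spint1* (-0.94), while *Serpinb1a* ran with *Cst7* (0.89), *Serpinb6a* (0.83) and *Spint1* (0.83). *Slpi* had r of -0.08 to 0.42 with the other 7. Among 5313 genes above background whose signals span at least 1, those most like *Serpinb1a* were *Tjp1*, *Ecm1* and *Akr1c12* (r of 0.99 to 1.00), and those most like *Serpinb2* were *Chst13*, *Usf3* and *Mfsd14b* (0.99 to 1.00). For *Serpinb6a* they were *Slc30a2*, *Ier3* and *Plod1* (0.98 to 0.99), for *Cst7* *Sfmbt1*, *Akr1e1* and *Synj2* (0.97 to 0.98), and for *Cstb* *Mboat7*, *Tnfsf14* and *Sh3tc1* (0.97 to 0.99). *Cst3* was most like *Tox3*, *Crlf3* and *Ccpg1* (0.95 to 0.97) and *Spint1* most like *Tnfsf8*, *A4galt* and *Hs6st2* (0.95 to 0.96). No gene followed *Slpi* as closely, since the 3 most alike, *Cdkn2a*, *Fam210b* and *Sdc4*, had r of 0.71 to 0.77.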

How the data were processed

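RNA was hybridised to Affymetrix Mouse Gene 1.0 ST arrays, and the authors deposited log2 signals that, per the labels, were made by RMA with the Bioconductor package affy. The log2 values (0.572 to 14.1, array medians 5.85 to 5.94) were used as deposited. Of 34760 probe sets, 21640 have 1 gene symbol in the platform annotation, 1321 several and 11799 none, and a gene was represented by its probe set of highest mean signal. Genes above background on at least 1 array of a fit were tested with limma 3.58.1 in R 4.3.3 (lmFit, eBayes, Benjamini-Hochberg over all genes tested, threshold 0.05). One fit gave genotype with a block for each of the 5 pairs. A second, on all 10 arrays, had cell type by genotype means, an IgE term and an LPS term, and the last had cell type and genotype on the 6 unstimulated arrays. Precision is limited by the number of arrays, and p-values do not cover the spread between cultures. The named genes were the members, the 3 genes most like each member and checks of labels. Added to these were up to 3 genes at each end among listed inhibitors and proteases that passed in a comparison. Cell markers, *Serpinb9*, *Serpinb10*, *Spint2*, *Wfdc1*, *Spink2*, *Plau* and relatives of members were named after their values were seen. Members and lists were chosen with earlier results of these data known. Tables were made with Python 3.11.15, pandas 2.3.3 and matplotlib 3.10.9. The alternatives were centring, quantile normalization, the mean of probe sets, no filter, the 99th percentile as background, a variance trend, other fits or arrays, the methods' t-test and each pair left out.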

Additional observations from a re-analysis of the deposited data

Results flagged for a closer look

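The genotype difference in *Slpi* differed between cell types: it was -4.93 on the log2 scale in BMBs and -1.85 in BMEos, and the test of the difference between them gave 3.08 (SE 0.17, limma adjusted p = 0.00989). *Slpi* was lower in *Slpi*-/- cells in both pairs of each cell type, and the B6 signals were 11.42 and 11.33 in BMBs and 8.08 and 7.96 in BMEos. The *Slpi*-/- signals were 6.55 and 6.35 in BMBs and 6.41 and 5.93 in BMEos. The flagged value thus mostly restates the B6 level of the deleted gene.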

How the results depend on the processing

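Of 632 values of the 72 member results under the alternatives, 586 kept their direction and their side of the threshold, 20 lost a call, 10 gained one and 16 changed sign, and 18 of the 27 calls passed under every alternative. No sign change touched a called value. No member other than *Slpi* passed a genotype test under any alternative. The count of genes for genotype over all pairs was 0, and 1 after centring, 1 after quantile normalization, 1 with the 99th percentile as background and 2 with a variance trend, and 0 to 2 with a pair left out. In BMBs it was 1, 9 with a variance trend and 1 to 15 with a pair left out. In BMEos it was 1, 0 after quantile normalization, without the filter and from BMEos arrays alone, 6 with a variance trend and 0 with either pair left out. For the difference between them it was 1, and 0 after quantile normalization. With a pair left out IgE gave 1115 to 2169 genes and LPS 1525 to 1534, from fewer arrays. Values that changed sign with a pair left out ranged, for genotype over all pairs, from -0.0713 to 0.0294 for *Cst3*, -0.10 to 0.065 for *Cstb* and -0.13 to 0.0645 for *Spint1* (0.0057 after quantile normalization). In BMBs they ranged from -0.29 to 0.11 for *Cst3*, -0.44 to 0.21 for *Cstb* and -0.30 to 0.46 for *Spint1*. In BMEos they ranged from -0.42 to 0.16 for *Serpinb1a*, -0.116 to 0.0441 for *Serpinb2*, -0.24 to 0.14 for *Serpinb6a* and -0.0741 to 0.0534 for *Cstb* (0.0037 after centring). For IgE *Spint1* ranged from -0.07 to 0.69. The cause was not tested. The calls for the *Slpi* genotype difference in BMEos and for *Serpinb2* with LPS were each lost in 5 of 9 alternatives, and signals near background, as for *Serpinb6a* and *Serpinb1a* in BMEos, limit what a difference there can show.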
